A study of Homo sapiens with 30 samples.

Results

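The genes described here are 41 genes of the lysosome and of autophagy, followed in a human colorectal cancer cell line treated with extracts of herbal formulas. They were chosen by name, as a fixed list of symbols, with earlier results of these data known. Each symbol was matched to the Ensembl identifier of its row in the count table. All 41 were found among the 60675 rows of the table. By role they were 4 lysosomal membrane proteins, 6 proteases (5 cathepsins and TPP1), 5 glycosidases or their activators, 6 subunits of the proton pump, 5 regulators that act at the lysosome, 6 genes of autophagy initiation, 6 of the autophagy conjugation machinery and 3 autophagy receptors. HT29 cells, an established line from a colorectal adenocarcinoma, received either the vehicle or 1 of 4 formulas, extracted in 70% ethanol, for 24 h, and their RNA was sequenced from a directional library as paired 100 bp reads. Vehicle had 3 libraries. Soshiho-tang and Yijin-tang had 3 libraries at each of 500, 100 and 20 µg/mL, Okbyeongpung-san had 2 libraries at each dose and Soyo-san had 1. The vehicle was DMSO, at 0.1% in the sample labels and at 2% in the design text. The design text adds that extracts with an IC20 under 500 µg/mL were used at lower doses set by that IC20, so the labelled doses may not hold for every formula. A wortmannin control that the design text names was not analysed here. No label states whether replicate libraries came from separate cultures, and the p-values therefore measure only the spread between these libraries, which may be technical.

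The lysosome is the acid compartment in which cells break down proteins, sugars, lipids and whole organelles. Its interior is acidified by the vacuolar proton pump (V-ATPase), its membrane is lined by heavily glycosylated proteins such as LAMP1 and LAMP2, and its lumen holds cathepsins, which cut proteins, and glycosidases, which remove sugars. Macroautophagy delivers cytoplasm to it: the ULK1 and BECN1 complexes start a membrane, a ubiquitin-like conjugation system attaches proteins of the LC3 and GABARAP families to it, and receptors such as NBR1 and SQSTM1 bring cargo. The transcription factors TFEB and TFE3 activate many of these genes by binding a short palindromic motif, and their entry into the nucleus is controlled by Rag GTPases, FLCN and the kinase complex TORC1 at the lysosomal surface. That control acts on the proteins, so messenger RNA levels do not measure lysosomal activity or autophagic flux.

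The promoter stretches that carry the motif of TFEB and TFE3 are shown because they let the response of the members be read against it. A promoter, from 250 bases before to 50 after the gene's start, was available from RefSeq (GRCh38.p14) for 32 of the 41 members. The 7 letters TCACGTG, searched on both strands (CACGTGA is the same motif on the other strand), occurred in 8 of these 32 (25%), and in 1026 of all 27305 promoters in the table (3.76%). The motif contains the shorter CACGTG, which was found in 8 of the 32 members (25%) and 1986 of all promoters (7.27%). One stretch of each of the 8 promoters follows, 5′ to 3′ along the gene, with the motif in capitals.
LAMP1, chr13:113297199-113297228, plus strand: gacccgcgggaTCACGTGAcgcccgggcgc
GAA, chr17:80101538-80101567, plus strand: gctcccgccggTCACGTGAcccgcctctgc
CTSA, chr20:45891298-45891327, plus strand: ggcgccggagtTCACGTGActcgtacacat
MCOLN1, chr19:7522571-7522600, plus strand: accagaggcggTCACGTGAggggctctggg
ATP6V0D1, chr16:67481199-67481228, minus strand: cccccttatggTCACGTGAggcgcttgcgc
CTSD, chr11:1763957-1763985, minus strand: ccggccgcgccCACGTGAccggtccgggt
NEU1, chr6:31862931-31862959, minus strand: atgctgcgtgaTCACGTGggaggagatga
RRAGC, chr1:38859867-38859895, minus strand: ggtgattccggCACGTGAcggggcaccac
The LAMP1 promoter held 6 such sites, and those of GAA, CTSA and MCOLN1 held 2 each. A match describes the letters and does not show that a factor binds there.

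The 30 libraries held between 18477059 and 36162296 counts, of which the 41 genes together took 0.385% to 0.421%. Expression is given as CPM, each gene's count set to a common library size that is adjusted by the trimmed mean of M-values (TMM). The epithelial markers EPCAM, CDH1, KRT8, KRT18, KRT20, VIL1, CDX1 and CDX2 summed to 11552 to 13429 CPM in vehicle and to 11961 to 12422 CPM with Soshiho-tang at 500 µg/mL. With Soshiho-tang at 20 µg/mL they summed to 10635 to 11469 CPM. Markers of leukocytes, fibroblasts and endothelium (8 genes) summed to 7.48 to 11.5 CPM in vehicle and to 8.07 to 9.28 CPM at the highest Soshiho-tang dose, and PTPRC, CD3E, DCN, VWF and COL1A2 were at or near 0. With Soshiho-tang at 500 µg/mL the differentiation marker KRT20 rose (log2 0.53 against vehicle, adjusted p = 1.2e-09), and VIL1 (−0.54, adjusted p = 1.3e-10) and CDX1 (−0.96, adjusted p = 0.011) fell. Against 20 µg/mL of the same formula 6 of the 8 epithelial markers were called (75%, where 26.8% of all genes were called). KRT20 (0.55), KRT8 (0.15) and KRT18 (0.14) were higher, and VIL1 (−0.55), CDX1 (−0.96) and CDH1 (−0.11) were lower. Of the other 8 markers 3 passed the filter on low counts. Against vehicle PECAM1 was higher (mean 1.29 CPM in vehicle and 1.85 CPM with the extract, adjusted p = 0.027) and COL1A1 lower (1.71 and 0.936 CPM, adjusted p = 0.0059), and against 20 µg/mL none of the 3 passed. The part of these markers in the results was not tested. The share of counts from mitochondrially encoded genes was 11.48% to 13.93% in vehicle and 9.06% to 10.78% with Soshiho-tang at 500 µg/mL, and its part in the results was not tested. The library names put vehicle in a separate set from the extracts, so vehicle and set cannot be told apart in any comparison with vehicle. Comparisons of 500 with 20 µg/mL use extract libraries only and are given as well. The 3 vehicle libraries also differed most among themselves by a chi-square per degree of freedom over genes, a measure that grows with depth. It was 11.2 to 20.6 between vehicle pairs and 2.41 to 7.03 between replicates of Soshiho-tang or Yijin-tang. Between the 2 Okbyeongpung-san libraries it was 2.73 at 500 µg/mL, 10.4 at 100 µg/mL and 2.49 at 20 µg/mL.

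In vehicle the members covered a wide range of levels. Per kilobase of merged exons, CTSD, the main aspartic protease of the lysosome, was the highest at 230.94 CPM per kb. It was followed by ATP6V0C (145.87), which forms the proton-carrying ring of the pump, PSAP (144.59), the precursor of the saposins that help enzymes reach their lipids, and CTSZ (143.36). LAMP1 stood at 66.544 CPM per kb. The lowest on this scale were GABARAPL1 (1.5024), WIPI1 (1.3406) and GAA (0.96519), apart from RRAGD. RRAGD, a Rag GTPase, had 0 counts in 24 of 30 libraries and 8 counts in all, so it was not tested, and 40 members passed the filter on low counts.

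Soshiho-tang at 500 µg/mL gave the largest number of changed members, in both directions and by small amounts. Against vehicle, 9 of 40 members rose and 10 fell (47.5%), where 39.2% of all 15882 genes tested were called, 21% higher and 18.3% lower. The test was edgeR's quasi-likelihood F-test, with Benjamini-Hochberg adjustment over all genes tested and a threshold of 0.05. The DESeq2 Wald test called 16 (40%, where 36.2% of all genes were called). With only the libraries of both groups in the fit 10 members were called (25%, where 27.8% of all genes were called). In RNA from whole cultures, fewer cells of a kind and less RNA per cell cannot be told apart. No member changed 2-fold: the median absolute log2 fold change was 0.12 for the members and 0.193 for all genes, and the signed medians were −0.012 and −0.01. Against Soshiho-tang at 20 µg/mL, 4 members rose and 5 fell (22.5%, where 26.8% of all genes were called, 13.3% higher and 13.5% lower), with a median absolute log2 change of 0.099 against 0.149 for all genes. The share of members called was thus close to that of all genes in both comparisons. The genes of autophagy conjugation rose in 5 of 6 cases against vehicle, while the proteases rose in 1 and fell in 3 of 6, and the receptors fell in 2 of 3. Between the doses, 1 of the 6 conjugation genes rose.

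**Figure D1:**
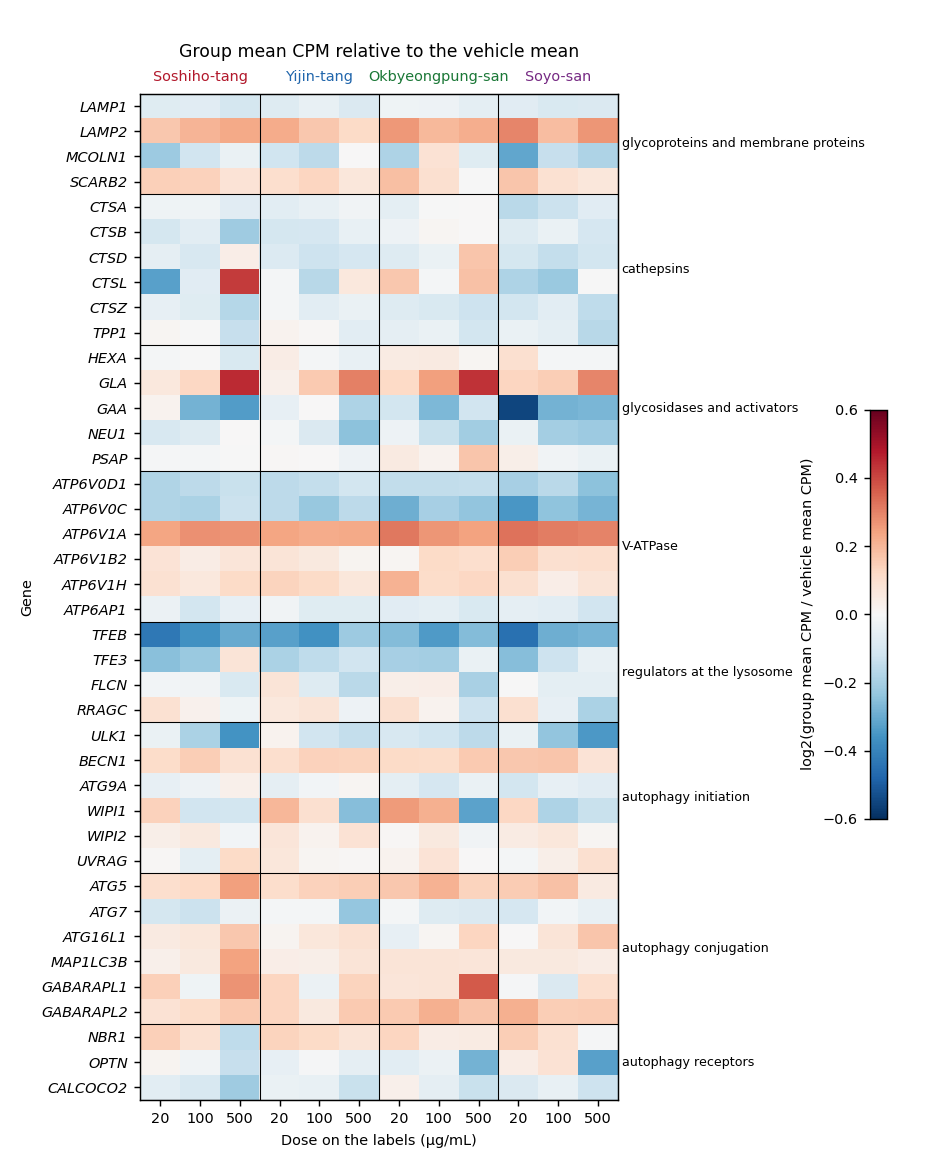
Log2 ratio of each group's mean CPM to the vehicle mean, for the 40 members that passed the filter (rows, grouped by role) in the 12 extract groups (columns, by formula and dose in µg/mL; Soyo-san has 1 library per dose). GLA is higher at 500 µg/mL of every formula, and TFEB is lower and ATP6V1A higher in every column.

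**Figure D2:**
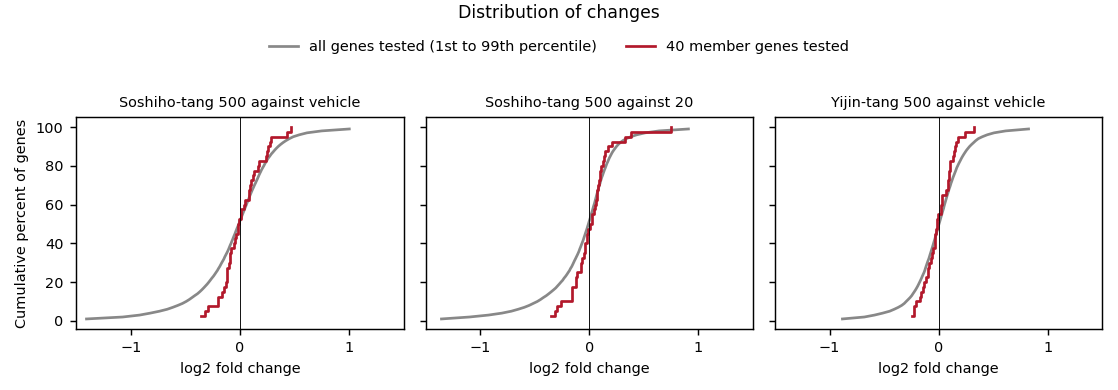
Cumulative percent of genes (vertical axis) against log2 fold change (horizontal axis) for the 40 tested members and for all genes tested, drawn from the 1st to the 99th percentile of the latter. The members' curve is steeper around 0, which corresponds to their smaller median absolute change (0.12 against 0.193 for Soshiho-tang 500 against vehicle).

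Among the glycosidases, GLA rose with 3 formulas at 500 µg/mL. GLA encodes alpha-galactosidase A, which removes terminal galactose from glycolipids and is deficient in Fabry disease (ENSG00000102393, chrX:101397803-101408012, minus strand, GRCh38 with GENCODE release 29). It stood at 27.1, 29.2 and 30.5 CPM in vehicle, at 29, 30.7 and 30.8 CPM with Soshiho-tang at 20 µg/mL, at 31.2, 31.5 and 31.8 CPM at 100 µg/mL and at 37.8, 41.7 and 38.9 CPM at 500 µg/mL. With Yijin-tang it was 29.9, 27.2 and 31.3 CPM at 20 µg/mL and 35.7, 34.1 and 37.2 CPM at 500 µg/mL. At the highest dose of both formulas every library lay above every vehicle library and every library at 20 µg/mL. The log2 fold change against vehicle was 0.46 ± 0.058 (SE, adjusted p = 3.1e-07) for Soshiho-tang and 0.32 ± 0.058 (adjusted p = 0.00022) for Yijin-tang. Against 20 µg/mL it was 0.39 ± 0.059 (adjusted p = 1.1e-05) for Soshiho-tang and 0.28 ± 0.059 (adjusted p = 0.0064) for Yijin-tang. The last of these was lost without Yijin-tang 20 replicate 2 (log2 0.22) and without Yijin-tang 500 replicate 3 (log2 0.25). At 500 µg/mL GLA differed between the formulas by a log2 of 0.14 (adjusted p = 0.11).

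The other 4 genes of this role moved less or in other directions. NEU1, the lysosomal sialidase (ENSG00000204386), stood at 52.4, 48.7 and 50.6 CPM in vehicle and at 43.9, 39.9 and 44.1 CPM with Yijin-tang at 500 µg/mL. It was 51.2, 49.7 and 49.5 CPM with Yijin-tang at 20 µg/mL and 51.9, 50.5 and 49.4 CPM with Soshiho-tang at 500 µg/mL. The 3 libraries at the highest Yijin-tang dose were below all of these. NEU1 fell by 0.23 on the log2 scale with Yijin-tang against vehicle (SE 0.046, adjusted p = 0.00077) and by 0.23 against 20 µg/mL (SE 0.047, adjusted p = 0.0063), a call that was lost without Yijin-tang 500 replicate 2 (log2 −0.19). With Soshiho-tang its log2 fold change against vehicle was 0.01 (adjusted p = 0.89). GAA, the glycogen-degrading acid alpha-glucosidase (ENSG00000171298), stood at 4.91, 5.06 and 4.95 CPM in vehicle, at 5, 5.73 and 4.44 CPM with Soshiho-tang at 20 µg/mL and at 4.35, 4.12 and 3.36 CPM at 500 µg/mL. It was lower at 500 µg/mL with no overlap, by a log2 of −0.32 ± 0.12 against vehicle (adjusted p = 0.029) and −0.35 ± 0.12 against 20 µg/mL (adjusted p = 0.026). Without Soshiho-tang 500 replicate 3 these were −0.24 and −0.26 and no longer past the threshold. The second was also lost without Soshiho-tang 20 replicate 1 (−0.36) or 2 (−0.25). Both calls were lost with DESeq2, the first with only the compared groups in the fit and the second with no filter on low counts. HEXA, a subunit of beta-hexosaminidase, and PSAP passed the threshold in no comparison.

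The proteases moved in opposite directions with Soshiho-tang. CTSL, a cysteine cathepsin (ENSG00000135047, chr9:87725519-87731393, plus strand), showed the largest change of any member in any comparison. It stood at 3.88, 3.88 and 3.85 CPM in vehicle, at 3.34, 2.87 and 3.06 CPM with Soshiho-tang at 20 µg/mL, at 2.93, 4.29 and 3.84 CPM at 100 µg/mL and at 4.49, 5.6 and 5.46 CPM at 500 µg/mL. The libraries at 500 µg/mL were above those of vehicle and of 20 µg/mL, while those at 100 µg/mL spread across the lower groups. The log2 fold change was 0.75 ± 0.14 against 20 µg/mL (adjusted p = 0.00012) and 0.43 ± 0.13 against vehicle (adjusted p = 0.0079), the latter falling short without Soshiho-tang 500 replicate 2 (0.35, adjusted p = 0.066). With Yijin-tang CTSL was 3.97, 3.95 and 3.58 CPM at 20 µg/mL and 3.35, 4.2 and 4.56 CPM at 500 µg/mL, which overlap (log2 0.07, adjusted p = 0.91). CTSL has pseudogene copies whose reads may be divided with it.

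CTSB and CTSZ, which are cysteine cathepsins as CTSL is, fell with Soshiho-tang. CTSB stood at 81.5, 85.3 and 90 CPM in vehicle and at 72.8, 73.1 and 75.7 CPM with Soshiho-tang at 500 µg/mL, with no overlap (log2 −0.20 ± 0.044, adjusted p = 0.00053). CTSZ stood at 291, 288 and 298 CPM in vehicle and at 257, 256 and 265 CPM at 500 µg/mL (log2 −0.16 ± 0.035, adjusted p = 0.00042). Between 500 and 20 µg/mL CTSZ fell by 0.13 on the log2 scale (SE 0.035, adjusted p = 0.0079), and the log2 change of CTSB was −0.11 (adjusted p = 0.07). TPP1, a tripeptidyl peptidase, stood at 141, 125 and 136 CPM in vehicle and at 126, 115 and 124 CPM at 500 µg/mL, and these groups overlap (log2 −0.13 ± 0.048, adjusted p = 0.029). Its call was lost without Vehicle replicate 1 (−0.11) or Soshiho-tang 500 replicate 2 (−0.11), and with only the compared groups in the fit. At 20 µg/mL TPP1 was 134, 139 and 132 CPM, above every library at 500 µg/mL (log2 −0.15 ± 0.048, adjusted p = 0.017), a call lost without Soshiho-tang 500 replicate 2 (−0.11) or Soshiho-tang 20 replicate 2 (−0.14). CTSD, whose exons overlap another gene on the same strand, stood at 760, 678 and 729 CPM in vehicle, 728, 720 and 641 CPM with Soshiho-tang at 20 µg/mL and 745, 766 and 715 CPM at 500 µg/mL, which overlap. It passed the threshold in no comparison, nor did CTSA, which stabilises NEU1.

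**Figure D3:**
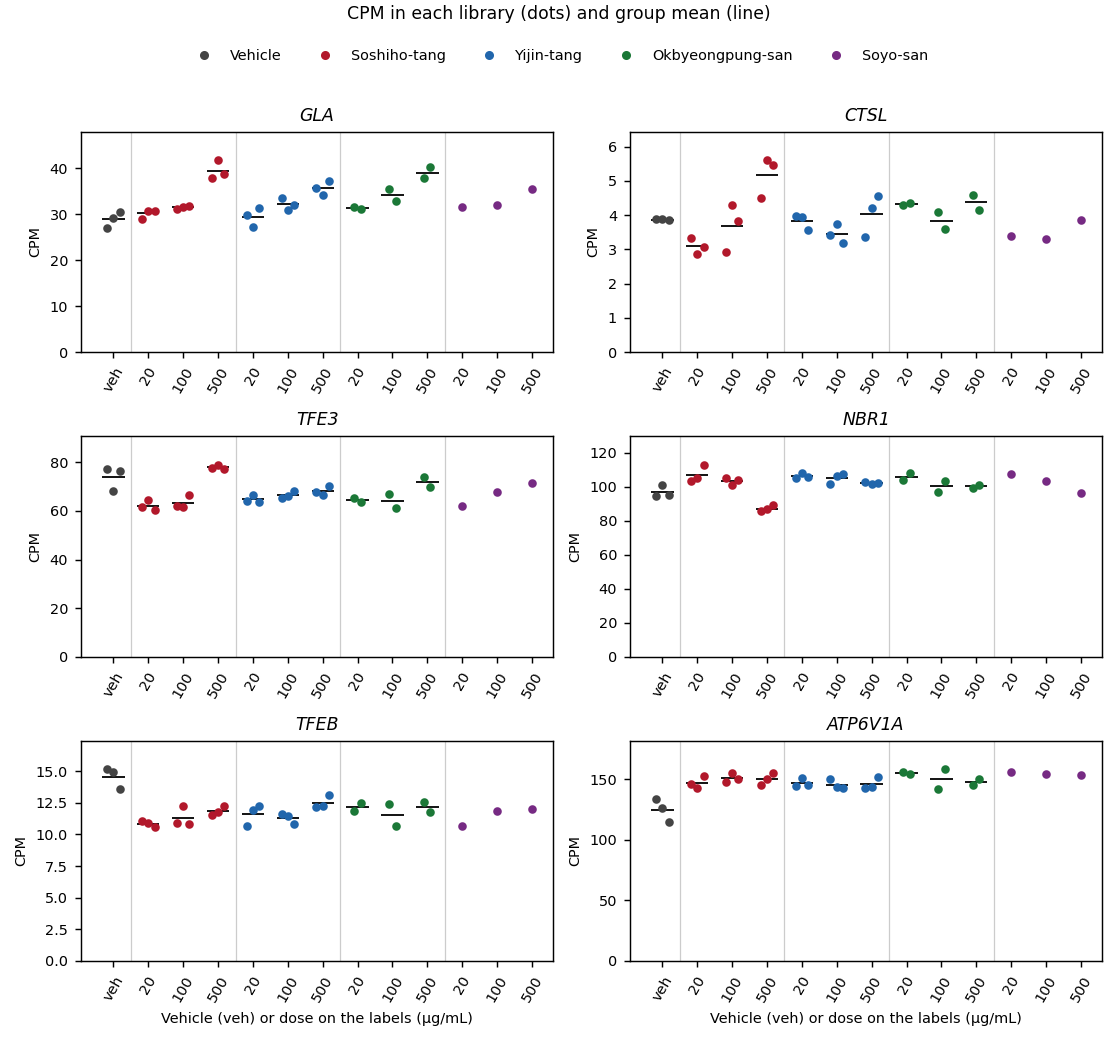
CPM of GLA, CTSL, TFE3, NBR1, TFEB and ATP6V1A in each of the 30 libraries, by group (formula and dose in µg/mL), 1 point per library with the group mean as a line. Soshiho-tang at 500 µg/mL lies apart from the same formula at 20 µg/mL in the first 4, whereas TFEB and ATP6V1A separate vehicle from every extract group.

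Of the lysosomal membrane proteins, LAMP2 lay above every vehicle library in 26 of 27 extract libraries and LAMP1 changed little. LAMP2 stood at 63.1, 76.5 and 72.3 CPM in vehicle, at 79.4, 77.5 and 80.1 CPM with Soshiho-tang at 20 µg/mL and at 79.2, 82.6 and 86.5 CPM at 500 µg/mL. Both Soshiho-tang doses lay above vehicle and overlapped each other: the log2 fold change against vehicle was 0.24 ± 0.051 at 500 µg/mL (adjusted p = 0.00035), and that between the doses was 0.06. LAMP1 stood at 386, 373 and 387 CPM in vehicle and at 344, 364 and 356 CPM at 500 µg/mL, with no overlap. It fell by 0.10 on the log2 scale (SE 0.037, adjusted p = 0.037). This call was lost without Soshiho-tang 500 replicate 1 (−0.09) and with only the compared groups in the fit. Against 20 µg/mL the log2 change of LAMP1 was −0.04 (adjusted p = 0.52). SCARB2, the carrier of beta-glucocerebrosidase, rose against vehicle by a log2 of 0.16 at 20 µg/mL of Soshiho-tang and 0.15 at 100 µg/mL. The first call was lost without Soshiho-tang 20 replicate 3, the second without Vehicle replicate 1 or 3 or Soshiho-tang 100 replicate 1 or 2, and both with no filter and with only the compared groups in the fit, with log2 values from 0.10 to 0.14. At 500 µg/mL its value was 0.09 (adjusted p = 0.074). MCOLN1, the calcium channel of the lysosome, passed the threshold in no comparison.

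Of the 6 proton pump subunits, ATP6V1A rose and ATP6V0D1 fell with Soshiho-tang at 500 µg/mL against vehicle, and none passed the threshold against 20 µg/mL. ATP6V1A, the catalytic subunit (ENSG00000114573, chr3:113747019-113812056, plus strand), stood at 133, 126 and 115 CPM in vehicle. With Soshiho-tang it was 146, 142 and 153 CPM at 20 µg/mL, 147, 155 and 150 CPM at 100 µg/mL and 145, 150 and 155 CPM at 500 µg/mL. All extract libraries lay above all vehicle libraries, and the doses overlapped. ATP6V1A rose against vehicle at all 3 doses of Soshiho-tang (log2 0.28 ± 0.047 at 500 µg/mL, adjusted p = 2.8e-05). It also rose at all 3 doses of Yijin-tang (0.24 ± 0.047 at 500 µg/mL, adjusted p = 0.00049). With only the compared groups in the fit, its calls were lost at 20 µg/mL of Soshiho-tang and at all 3 doses of Yijin-tang. Between 500 and 20 µg/mL its log2 change was 0.03 (adjusted p = 0.74) for Soshiho-tang and −0.00 for Yijin-tang. ATP6V0D1, a membrane-sector subunit, stood at 64.6, 65 and 70.9 CPM in vehicle and at 60.9, 63 and 59 CPM with Soshiho-tang at 500 µg/mL (log2 −0.12 ± 0.048, adjusted p = 0.045). The log2 change of ATP6V0D1 from 20 µg/mL was 0.05 (adjusted p = 0.52). The call of ATP6V0D1 against vehicle was lost without Vehicle replicate 3 (−0.09), Soshiho-tang 500 replicate 1 (−0.14) or replicate 3 (−0.11). DESeq2 and a fit with only the compared groups also lost it. ATP6V0C fell with Yijin-tang at 100 µg/mL (log2 −0.22), and ATP6V1B2, ATP6V1H and ATP6AP1 passed the threshold in no comparison.

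ATP6V1B1, which is no member but encodes the pump subunit of kidney and other specialised cells in place of ATP6V1B2, fell furthest among the pump genes. It stood at 27.5, 24.3 and 29.8 CPM in vehicle, at 22.9, 24.2 and 22.4 CPM with Soshiho-tang at 20 µg/mL, at 25.7, 18.5 and 21.1 CPM at 100 µg/mL and at 8.62, 8.41 and 8.27 CPM at 500 µg/mL. At 500 µg/mL it was 17.8, 17.9 and 19.6 CPM with Yijin-tang and 12.9 and 13 CPM with Okbyeongpung-san. Each of these groups lay below every library of vehicle and of its own formula at 20 µg/mL. The log2 fold change against 20 µg/mL was −1.46 ± 0.098 for Soshiho-tang (adjusted p = 1.2e-11) and −0.35 for Yijin-tang (adjusted p = 0.032), and the difference between these changes was −1.11 (adjusted p = 3.3e-06). For Okbyeongpung-san it was −0.88 ± 0.10 (adjusted p = 0.0015). Exons of ATP6V1B1 overlap those of VAX2 on the same strand. The list of pump subunits outside the members had 14 tested genes, ATP6V1B1 among them. With Soshiho-tang at 500 µg/mL 6 rose and 3 fell against vehicle (64.3%, where 39.2% of all genes were called). Against 20 µg/mL 2 rose, and ATP6V1B1 was the 1 that fell (21.4%, where 26.8% of all genes were called). ATP6V0B rose in both (log2 0.30 in each), and ATP6V1C1 rose against vehicle (0.33) and had a log2 change of 0.08 between the doses. ATP6V1E1 rose between the doses (0.15), while its call against vehicle (0.12, adjusted p = 0.043) held in 3 of 27 other settings.

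The transcription factors TFEB and TFE3 followed different patterns. TFEB (ENSG00000112561, chr6:41683978-41736259, minus strand) stood at 15.1, 15 and 13.6 CPM in vehicle. With Soshiho-tang it was 11, 10.9 and 10.6 CPM at 20 µg/mL, 10.9, 12.2 and 10.8 CPM at 100 µg/mL and 11.5, 11.7 and 12.2 CPM at 500 µg/mL. Every extract library of every formula lay below every vehicle library, and the highest Soshiho-tang dose lay above 20 µg/mL. TFEB fell against vehicle by 0.42 on the log2 scale at 20 µg/mL of Soshiho-tang, by 0.35 at 100 µg/mL and by 0.29 at 500 µg/mL (SE 0.071, adjusted p = 0.0016). With Yijin-tang it fell by 0.32, 0.36 and 0.21 (SE 0.07, adjusted p = 0.036 for the last). The call for Yijin-tang at 500 µg/mL was lost with DESeq2 (−0.21) and with only the compared groups in the fit. It was also lost without Vehicle replicate 1 (−0.19), Yijin-tang 500 replicate 1 (−0.20) or replicate 2 (−0.21). Between 500 and 20 µg/mL the log2 change of TFEB was 0.12 (adjusted p = 0.25) for Soshiho-tang and 0.11 for Yijin-tang.

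TFE3 (ENSG00000068323, chrX:49028726-49043486, minus strand) was lower than vehicle at the lower doses and not at the highest dose of Soshiho-tang. It stood at 77.1, 68.1 and 76.6 CPM in vehicle, at 61.7, 64.7 and 60.3 CPM with Soshiho-tang at 20 µg/mL, at 62.2, 61.6 and 66.5 CPM at 100 µg/mL and at 77.6, 79 and 77.4 CPM at 500 µg/mL. With Yijin-tang it was 63.9, 66.6 and 63.7 CPM at 20 µg/mL, 65.5, 66.2 and 68.2 CPM at 100 µg/mL and 67.8, 66.5 and 70.4 CPM at 500 µg/mL. The highest Soshiho-tang dose lay above all of these libraries. TFE3 rose between 20 and 500 µg/mL of Soshiho-tang by a log2 of 0.32 ± 0.047 (adjusted p = 5.2e-06) and was 0.19 ± 0.046 higher than with Yijin-tang at 500 µg/mL (adjusted p = 0.0059). Against vehicle it fell by 0.24 at 20 µg/mL and by 0.21 at 100 µg/mL of Soshiho-tang, and its log2 fold change at 500 µg/mL was 0.09 (adjusted p = 0.14). FLCN and RRAGC, which act on both factors at the lysosome, passed the threshold in no comparison.

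None of the 8 members with the motif TCACGTG in the promoter was called higher at 500 µg/mL of Soshiho-tang or Yijin-tang, against vehicle or against 20 µg/mL. With Soshiho-tang at 500 µg/mL against vehicle, 0 of the 8 rose and 3 fell (median log2 −0.047), and 7 rose and 6 fell of the 24 members whose promoter lacked it (median −0.014), where 21% of all genes rose and 18.3% fell. Against 20 µg/mL, 0 rose and 1 fell of the 8, and 4 rose and 4 fell of the 24 (13.3% and 13.5% of all genes). With Yijin-tang at 500 µg/mL, 0 rose and 1 fell of the 8 against vehicle, and 3 rose and 2 fell of the 24 (12.7% and 8.39% of all genes). The members with the motif that fell were LAMP1, GAA and ATP6V0D1 with Soshiho-tang, whose stretches are printed above, and NEU1 with Yijin-tang. These counts are a description, and the difference between members with and without the motif was not tested.

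Autophagy initiation genes changed in 1 of 6 cases with Soshiho-tang at 500 µg/mL. Of all genes 39.2% were called against vehicle and 26.8% against 20 µg/mL. ULK1, the kinase that starts autophagy (ENSG00000177169, chr12:131894651-131923167), stood at 28.7, 21.1 and 20.3 CPM in vehicle, at 23.8, 23.2 and 21.2 CPM with Soshiho-tang at 20 µg/mL and at 18.6, 18.6 and 17.6 CPM at 500 µg/mL. The highest dose lay below both other groups, and 1 vehicle library lay well above the other two. ULK1 fell by 0.36 on the log2 scale against vehicle (SE 0.11, adjusted p = 0.013) and by 0.32 against 20 µg/mL (SE 0.11, adjusted p = 0.043). Without Vehicle replicate 1 the first value was −0.19 (adjusted p = 0.077). The first call was also lost with only the compared groups in the fit, and the second call held in 16 of 27 other settings. BECN1, part of the lipid kinase complex that follows, stood at 55.3, 54.6 and 57.3 CPM in vehicle and rose to 62.7, 59 and 61.6 CPM with Yijin-tang at 500 µg/mL (log2 0.15 ± 0.043, adjusted p = 0.015). Against Yijin-tang at 20 µg/mL its log2 change was 0.04 (adjusted p = 0.82). The BECN1 call against vehicle was lost without Vehicle replicate 1 (0.13), Vehicle replicate 2 (0.12), Yijin-tang 500 replicate 1 (0.11) or replicate 3 (0.12). It was also lost with no filter on low counts and with only the compared groups in the fit. ATG9A, WIPI1, WIPI2 and UVRAG passed the threshold in no comparison.

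With Soshiho-tang at 500 µg/mL, the conjugation genes had the most members higher than vehicle of any role, 5 of 6. Of all genes 21% were higher in that comparison. At the lower Soshiho-tang doses 0 of 6 were called higher, where 11.1% of all genes were at 100 µg/mL and 10.6% at 20 µg/mL. MAP1LC3B, which encodes the LC3 protein attached to autophagic membranes (ENSG00000140941, chr16:87383995-87404779, plus strand), stood at 42.6, 43.2 and 43.9 CPM in vehicle. With Soshiho-tang it was 44.2, 42.6 and 45.6 CPM at 20 µg/mL, 43.6, 45.7 and 45.9 CPM at 100 µg/mL and 51.4, 51.1 and 50.9 CPM at 500 µg/mL. The highest dose lay above all of these and above Yijin-tang at 500 µg/mL, which was 44.9, 44.5 and 47.3 CPM. MAP1LC3B rose with Soshiho-tang by a log2 of 0.25 ± 0.046 against vehicle (adjusted p = 7.8e-05) and 0.21 ± 0.047 against 20 µg/mL (adjusted p = 0.0012). It was 0.16 ± 0.047 higher than with Yijin-tang at 500 µg/mL (adjusted p = 0.02). This call was lost with no filter on low counts. Leaving out Soshiho-tang 500 replicate 1 (0.16) or Yijin-tang 500 replicate 1 (0.15) or 2 (0.15) also lost it. Reads may be divided between MAP1LC3B and its near copy MAP1LC3B2, and between GABARAPL1 and GABARAPL3.

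The conjugation genes GABARAPL1, GABARAPL2, ATG5 and ATG16L1 also rose with Soshiho-tang at 500 µg/mL against vehicle. GABARAPL1 went from 6.27, 5.94 and 6.21 CPM to 7.43, 7.54 and 7.26 CPM (log2 0.28 ± 0.086, adjusted p = 0.01). Its call was lost without Soshiho-tang 500 replicate 2 (0.25), with DESeq2 and with no filter on low counts. GABARAPL2 went from 46.2, 49.5 and 46.3 CPM to 51.3, 55.5 and 51.5 CPM (log2 0.17 ± 0.051, adjusted p = 0.0098). Its call was lost without Vehicle replicate 3 (0.14) or Soshiho-tang 500 replicate 2 (0.11), and with only the compared groups in the fit. ATG5, which is joined to ATG12, went from 32.8, 38.8 and 37 CPM to 41.9, 41.7 and 45.4 CPM (log2 0.26 ± 0.06, adjusted p = 0.001). ATG16L1, which places that conjugate on the membrane, went from 28.3, 28.7 and 29.2 CPM to 33, 32 and 31.5 CPM (log2 0.17 ± 0.05, adjusted p = 0.007). Its call was lost without Soshiho-tang 500 replicate 1 (0.14), with no filter on low counts and with only the compared groups in the fit. In all 4 the groups did not overlap, and how many of all genes were free of overlap in this comparison was not counted. Between 500 and 20 µg/mL their log2 changes were smaller, from 0.07 for GABARAPL2 to 0.14 for ATG5 (adjusted p = 0.084), and none passed the threshold. With Yijin-tang at 500 µg/mL, GABARAPL2 rose (log2 0.17 ± 0.051, adjusted p = 0.016) and ATG7, the enzyme that activates the ubiquitin-like proteins, fell by 0.23 (SE 0.079, adjusted p = 0.04). The GABARAPL2 call was lost without Vehicle replicate 1 (0.14), Vehicle replicate 3 (0.14), Yijin-tang 500 replicate 1 (0.14) or replicate 3 (0.15). It was also lost with no filter on low counts and with only the compared groups in the fit. The ATG7 call was lost without Vehicle replicate 1 (−0.21), Vehicle replicate 2 (−0.21), Yijin-tang 500 replicate 1 (−0.19) or replicate 3 (−0.25). DESeq2 and a fit with only the compared groups also lost the ATG7 call. Against Yijin-tang at 20 µg/mL the log2 change was 0.03 for GABARAPL2 (adjusted p = 0.88) and −0.22 for ATG7 (adjusted p = 0.20).

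The receptors NBR1 and SQSTM1 moved in opposite directions with Soshiho-tang. NBR1, a receptor for ubiquitin-tagged cargo (ENSG00000188554, chr17:43170481-43211689, plus strand), stood at 94.8, 101 and 95.2 CPM in vehicle. With Soshiho-tang it was 103, 105 and 113 CPM at 20 µg/mL, 105, 101 and 104 CPM at 100 µg/mL and 85.6, 86.7 and 89 CPM at 500 µg/mL. The highest dose lay below every library of these groups, and 20 µg/mL lay above vehicle. NBR1 fell by 0.30 on the log2 scale between 20 and 500 µg/mL (SE 0.041, adjusted p = 2.3e-06) and by 0.14 against vehicle at 500 µg/mL (SE 0.041, adjusted p = 0.006). With Yijin-tang at 500 µg/mL it was 103, 102 and 102 CPM (log2 0.09 against vehicle, adjusted p = 0.11), and Soshiho-tang at that dose was lower by a log2 of −0.23 ± 0.041 (adjusted p = 0.00017). CALCOCO2, a receptor for damaged organelles and bacteria, fell against vehicle (log2 −0.21 ± 0.067, adjusted p = 0.017), though 1 of its libraries at 26.1 CPM lay within the vehicle range. Its call was lost without Soshiho-tang 500 replicate 1 (−0.18) or 2 (−0.18), and with only the compared groups in the fit. The log2 change of CALCOCO2 from 20 µg/mL was −0.16 (adjusted p = 0.092). OPTN passed the threshold in no comparison.

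SQSTM1, the receptor also called p62, is no member and is given beside NBR1. It stood at 346, 343 and 368 CPM in vehicle, at 332, 334 and 322 CPM with Soshiho-tang at 20 µg/mL, at 331, 337 and 327 CPM at 100 µg/mL and at 492, 475 and 473 CPM at 500 µg/mL. With Yijin-tang at 500 µg/mL it was 324, 314 and 321 CPM. Only the highest Soshiho-tang dose was above vehicle among these. The log2 change between 20 and 500 µg/mL was 0.54 ± 0.034 (adjusted p = 1.5e-12) for Soshiho-tang and −0.05 for Yijin-tang, and the changes differed by 0.59 ± 0.048 (adjusted p = 3.9e-09). The list of receptors outside the members had 12 tested genes, SQSTM1 among them. With Soshiho-tang at 500 µg/mL 3 rose and 1 fell against vehicle (33.3%, where 39.2% of all genes were called). Against 20 µg/mL SQSTM1 was the 1 that rose and BNIP3L the 1 that fell (16.7%, where 26.8% of all genes were called). CCPG1, a receptor for the endoplasmic reticulum, rose against vehicle (log2 0.30) and TOLLIP fell (−0.20), and BNIP3L, a mitochondrial receptor, fell between the doses (−0.35, adjusted p = 0.0012). NCOA4, the ferritin receptor, passed the threshold in neither.

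**Figure D4:**
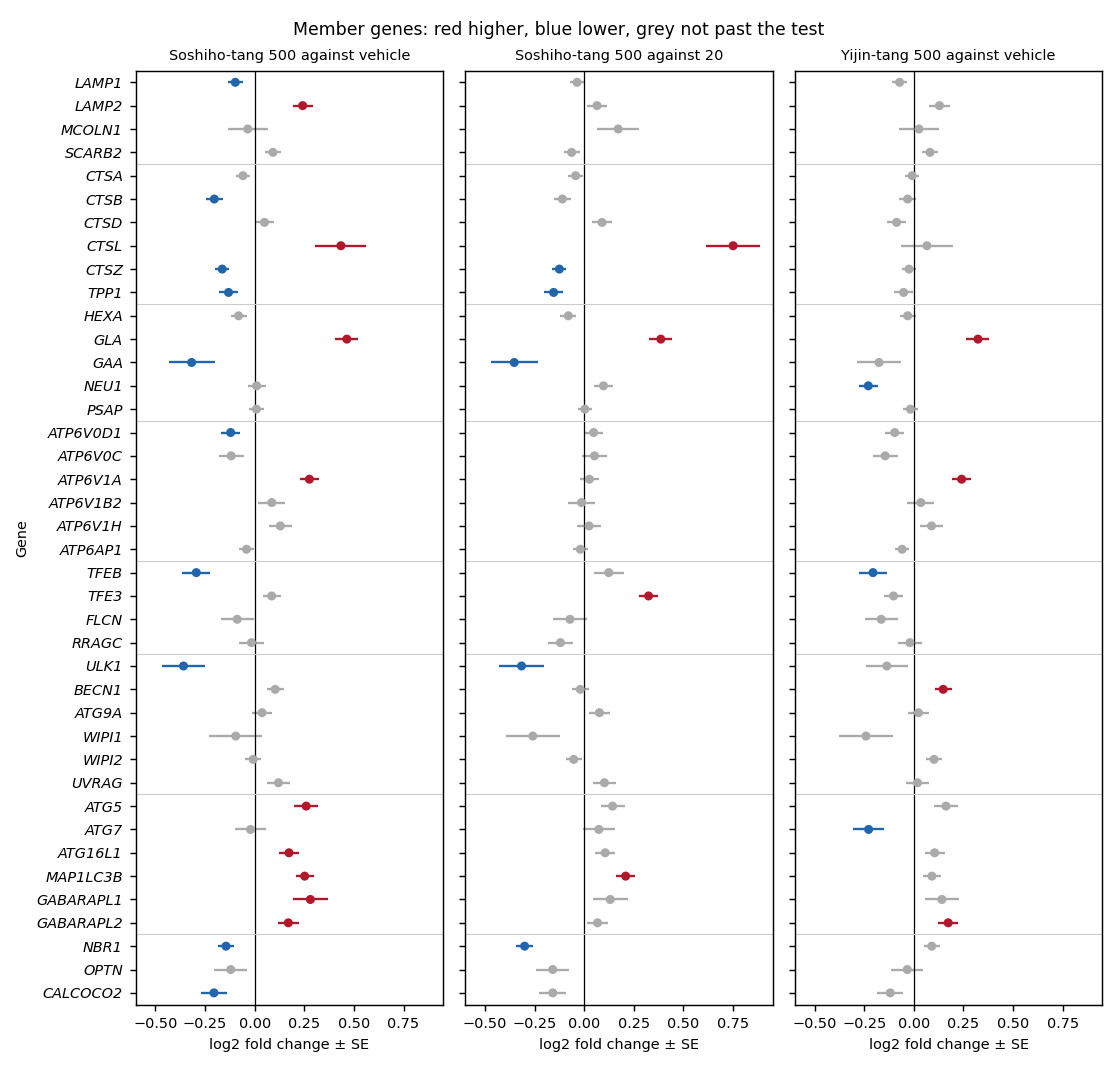
Log2 fold change (horizontal axis, point) with its standard error (bar) for the 40 tested members, for Soshiho-tang 500 against vehicle, Soshiho-tang 500 against 20 and Yijin-tang 500 against vehicle. Red points are higher and blue points lower at an adjusted p below 0.05 and grey points did not pass; CTSL between the Soshiho-tang doses is the farthest from 0, at 0.75.

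The wider pathway was read from 5 further lists, also chosen with earlier results of these data known. Of 35 other lysosomal enzymes and membrane proteins tested, 3 rose and 15 fell with Soshiho-tang at 500 µg/mL against vehicle (51.4%, where 39.2% of all genes were called, and median log2 −0.126, where that of all genes was −0.01). Between the doses 3 rose and 13 fell (45.7%, where 26.8% of all genes were called, and median −0.13). IDS, which removes sulfate from heparan and dermatan sulfate, stood at 98.1, 95.4 and 96.5 CPM in vehicle, at 105, 104 and 102 CPM with Soshiho-tang at 20 µg/mL and at 148, 140 and 149 CPM at 500 µg/mL. NPC1, the exporter of cholesterol from the lysosome, stood at 46.7, 42.6 and 40.3 CPM in vehicle, at 47.7, 43.8 and 50 CPM at 20 µg/mL and at 66.7, 66.7 and 64.3 CPM at 500 µg/mL. Both were higher at 500 µg/mL with no overlap. The log2 change between the doses was 0.49 for IDS (adjusted p = 8.4e-10) and 0.48 for NPC1 (adjusted p = 2.2e-07). GM2A, the activator of ganglioside breakdown, fell from 21.8, 24.4 and 23.2 CPM at 20 µg/mL to 16, 16.6 and 16.3 CPM at 500 µg/mL (log2 −0.51, adjusted p = 3.3e-07), and vehicle was 21.6, 20 and 20.2 CPM. FUCA1, a fucosidase, fell against vehicle by 0.45 on the log2 scale and against 20 µg/mL by 0.37.

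Of 23 TORC1 and Rag genes tested, 6 rose and 4 fell with Soshiho-tang at 500 µg/mL against vehicle (43.5%), and 1 rose and 5 fell against 20 µg/mL (26.1%). These shares are close to those of all genes, 39.2% and 26.8%. DEPTOR, an inhibitor bound to the kinase mTOR, stood at 4.88, 4.47 and 4.55 CPM in vehicle, at 5.36, 4.54 and 6.16 CPM at 20 µg/mL and at 1.97, 2.45 and 2.56 CPM at 500 µg/mL. SESN1, a sestrin that restrains TORC1, stood at 23.9, 26.7 and 26.3 CPM in vehicle, at 28.8, 26.2 and 27.2 CPM at 20 µg/mL and at 14.3, 14.8 and 14.4 CPM at 500 µg/mL. Neither overlapped. Between the doses DEPTOR fell by 1.20 on the log2 scale (SE 0.14, adjusted p = 2.6e-07) and SESN1 by 0.91 (adjusted p = 3.2e-11), while with Yijin-tang at 500 µg/mL against vehicle the log2 values were −0.08 and −0.01. RHEB, the direct activator of TORC1, rose between the doses (0.23, adjusted p = 0.001), and FNIP1, a partner of FLCN, rose against vehicle (0.54, adjusted p = 9.3e-07) with a log2 of 0.09 between the doses.

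Of 27 other autophagy core genes tested, 7 rose and 3 fell with Soshiho-tang at 500 µg/mL against vehicle (37%, where 39.2% of all genes were called). In the comparison with 20 µg/mL 4 rose and 3 fell (25.9%, where 26.8% of all genes were called). GABARAP, of the same family as GABARAPL1 and GABARAPL2, stood at 76.3, 76.9 and 97.1 CPM in vehicle, at 68.4, 70.1 and 69.1 CPM at 20 µg/mL and at 58.6, 56.9 and 59 CPM at 500 µg/mL. It was lowest at the highest dose with no overlap, and fell by 0.51 on the log2 scale against vehicle (adjusted p = 3.4e-07) and by 0.25 against 20 µg/mL (adjusted p = 0.0038), where GABARAPL1 and GABARAPL2 were higher than vehicle. ATG4A, a protease that trims the LC3 and GABARAP proteins, stood at 8.68, 9.1 and 9.91 CPM in vehicle, at 8.34, 8.23 and 9.26 CPM at 20 µg/mL and rose to 11.3, 11.3 and 12.6 CPM (log2 0.44 between the doses, adjusted p = 0.0013). VMP1, an endoplasmic reticulum protein needed for the autophagic membrane, rose between the doses (0.30) and against vehicle (0.24). ATG2B, a lipid transfer protein, fell between the doses (−0.25, adjusted p = 0.0016), and TMEM41B, a partner of VMP1, rose against vehicle (0.31). IDS, FNIP1, GABARAP, VMP1 and CCPG1 have exons that overlap another gene on the same strand, so their counts may be shared with it.

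**Figure D5:**
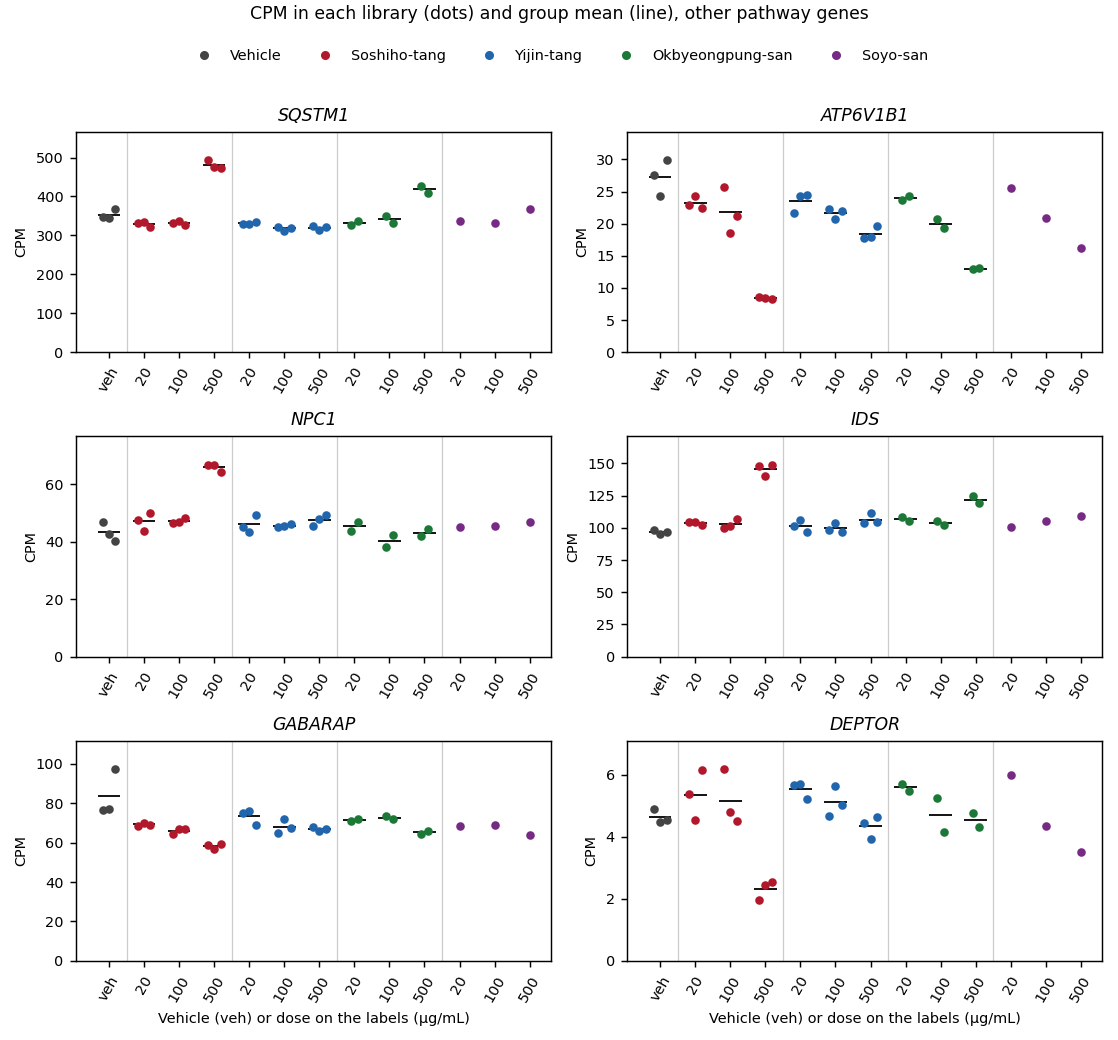
CPM of SQSTM1, ATP6V1B1, NPC1, IDS, GABARAP and DEPTOR in each of the 30 libraries, by group (formula and dose in µg/mL), 1 point per library with the group mean as a line. The 3 libraries of Soshiho-tang at 500 µg/mL stand apart from vehicle in all 6 panels, and ATP6V1B1 is also lower at 500 µg/mL of the other formulas.

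At the lower Soshiho-tang doses 7 members were called against vehicle in each case. At 100 µg/mL 4 rose and 3 fell (17.5%). Of all genes 18.2% were called at that dose, 11.1% higher and 7.05% lower. At 20 µg/mL 4 rose and 3 fell (17.5%), where 16.9% of all genes were called, 10.6% higher and 6.34% lower. ATP6V1A, LAMP2 and SCARB2 rose at both doses, with BECN1 at 100 µg/mL and NBR1 at 20 µg/mL, and TFEB, TFE3 and ATP6V0D1 fell at both. Without a filter on low counts the splits were 2 higher and 5 lower at 100 µg/mL and 2 higher and 4 lower at 20 µg/mL. The number called at 100 µg/mL was 12 without Vehicle replicate 2 and 4 without Soshiho-tang 100 replicate 2, and that at 20 µg/mL was 3 without Soshiho-tang 20 replicate 3. These and later counts without a library are given without the share of all genes called in the same fit. With only the compared groups in the fit 2 members were called at 100 µg/mL, TFEB and ATP6V1A (5%, where 3.67% of all genes were called), and 1 at 20 µg/mL, TFEB (2.5%, where 2.38% were called).

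With Yijin-tang at 500 µg/mL 4 members rose and 3 fell against vehicle (17.5%, where 21% of all genes were called, 12.7% higher and 8.39% lower), with a median absolute log2 change of 0.094 against 0.136 for all genes. The members were GLA, ATP6V1A, GABARAPL2 and BECN1, which rose, and NEU1, TFEB and ATG7, which fell. DESeq2 called 5 (12.5%, where 25.9% of all genes were called), and without a filter on low counts the split was 2 higher and 4 lower. The count was 13 without Vehicle replicate 2, 4 without Vehicle replicate 1, 3 without Yijin-tang 500 replicate 1 and 4 without replicate 3. At 100 µg/mL 6 rose and 3 fell (22.5%, where 18.4% of all genes were called, 11.1% higher and 7.37% lower). ATP6V1A, LAMP2, SCARB2, BECN1, NBR1 and GLA rose and TFEB, TFE3 and ATP6V0C fell, and of 27 other settings the GLA call held in 2, that of NBR1 in 8, those of BECN1 and SCARB2 in 21 each and those of the other 5 in 22 or more. This split was 5 to 4 with DESeq2's size factors and 2 to 5 with no filter, and the count was 5 without Vehicle replicate 1 or 3 and 4 without Yijin-tang 100 replicate 1 or 2. At 20 µg/mL 3 rose and 3 fell (15%, where 17% of all genes were called, 10.3% higher and 6.66% lower), 2 and 4 with no filter, and the count was 10 without Vehicle replicate 2. The 6 genes were ATP6V1A, LAMP2 and NBR1, which rose, and TFEB, TFE3 and ATP6V0D1, which fell. With only the compared groups in the fit the counts were 2 at 500 µg/mL (5%, where 6.82% of all genes were called), 1 at 100 µg/mL (TFEB, 2.5%, where 3.79% were called) and 0 at 20 µg/mL (3.26% of all genes).

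Between 20 and 500 µg/mL of Yijin-tang 2 members were called, GLA higher and NEU1 lower (5%, where 1.86% of all genes were called, 0.724% higher and 1.13% lower). The count was 1 without Yijin-tang 500 replicate 2, Yijin-tang 500 replicate 3 or Yijin-tang 20 replicate 2. At 500 µg/mL, 3 members were higher with Soshiho-tang than with Yijin-tang (TFE3, NEU1 and MAP1LC3B) and 3 were lower (NBR1, CTSB and CTSZ), which is 15% of members, where 12.9% of all genes were called, 6.54% higher and 6.38% lower. The count was 11 without Vehicle replicate 1, which is in neither group but in the shared fit. With only the libraries of both groups in the fit it was 10 (25%, where 19.6% of all genes were called). The formulas share a labelled dose and not a composition, so these are differences between extracts at the same label.

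The change from 20 to 500 µg/mL itself differed between Soshiho-tang and Yijin-tang for 4 members (10%). Of all genes 4.58% were called, 2.15% with a positive difference (Soshiho-tang minus Yijin-tang) and 2.42% with a negative difference. This log2 difference was 0.68 ± 0.19 for CTSL (adjusted p = 0.037), 0.32 ± 0.066 for NEU1 (adjusted p = 0.0026) and 0.24 ± 0.066 for TFE3 (adjusted p = 0.028). NEU1 fell between the doses of Yijin-tang and was not called between those of Soshiho-tang. For NBR1 the difference was −0.25 ± 0.058 (adjusted p = 0.0087). The calls of NEU1 and NBR1 held in all 27 other settings, that of TFE3 in 19 and that of CTSL in 18. Without Soshiho-tang 500 replicate 2 or 3, Soshiho-tang 20 replicate 3, Yijin-tang 500 replicate 1 or 2, or Yijin-tang 20 replicate 2, the count was 2. For GLA the changes of both formulas differed by 0.10 (adjusted p = 0.62).

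Okbyeongpung-san had 2 libraries a dose, 1 of them in a batch that the labels call D with the Soyo-san libraries and 1 in batch E with all others. At 500 µg/mL 1 member, GLA, was called against vehicle (2.5%, where 4.38% of 15762 genes were called, 2.19% higher and 2.19% lower). GLA was 37.8 and 40.3 CPM at 500 µg/mL, 35.5 and 33 CPM at 100 µg/mL and 31.7 and 31.1 CPM at 20 µg/mL, the batch E library first in each. Within each batch the value at 500 µg/mL was above that at 20 µg/mL. It rose against vehicle by a log2 of 0.44 ± 0.076 (adjusted p = 0.0083), and the call was lost without either library (0.48 without replicate 2 and 0.40 without replicate 3), which left 0 members called. Without Vehicle replicate 1 the count was 5, and without Vehicle replicate 2 it was 3. Between 500 and 20 µg/mL the log2 change of GLA was 0.32 ± 0.085 (adjusted p = 0.17).

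At 100 µg/mL of Okbyeongpung-san 0 members were called against vehicle with edgeR (0.108% of all genes, 0.0444% higher and 0.0634% lower). DESeq2 called 0 there (2.09% of all genes). At 20 µg/mL edgeR called 0 (0.273% of all genes, 0.14% higher and 0.133% lower). At that dose DESeq2 called 2 of the 34 members it tested (5.88%, where 6.24% of all genes were called). The count at 20 µg/mL was 4 without Vehicle replicate 2 and 1 without Vehicle replicate 1, and that at 100 µg/mL was 1 without Vehicle replicate 1. Between 500 and 20 µg/mL 0 members were called (0.558% of all genes, 0.247% higher and 0.311% lower), and DESeq2 called 0 (0.679% of all genes). With all 27 libraries of vehicle, Soshiho-tang, Yijin-tang and Okbyeongpung-san in 1 fit, which shares the estimate of spread, 13 members were called against vehicle at 500 µg/mL of Okbyeongpung-san (32.5%, where 18.3% of all genes were called). In that fit 7 were called at 100 µg/mL (17.5%, where 9.13% were called) and 7 at 20 µg/mL (17.5%, where 15.1% were called), and 2 between 500 and 20 µg/mL (5%, where 2.13% were called). The TFEB libraries, at 11.9 and 12.4 CPM for 20 µg/mL and 12.6 and 11.8 CPM for 500 µg/mL, lay below all vehicle libraries (log2 −0.25 at 500 µg/mL, adjusted p = 0.15). GABARAPL1 was 7.89 and 7.98 CPM at 500 µg/mL, above all vehicle libraries (log2 0.37, adjusted p = 0.059).

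Soyo-san had 1 library a dose, so its values have no replicate check. Of the 40 members, 0 differed from the vehicle mean by more than 0.5 on the log2 scale at 500 µg/mL (12.5% of 16885 genes did), 0 at 100 µg/mL (10.2%) and 1 at 20 µg/mL (10.5%), which was GAA at 3.4 CPM (log2 −0.54). GLA was 31.6, 32 and 35.4 CPM at 20, 100 and 500 µg/mL, all above the highest vehicle library (30.5 CPM), with a log2 difference of 0.29 at 500 µg/mL. TFEB was 10.7, 11.9 and 12 CPM and ATP6V1A 156, 154 and 153 CPM at these doses. CTSL, which rose with Soshiho-tang, was 3.4, 3.32 and 3.86 CPM.

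Across formulas and doses, 25 members were called in at least 1 of the 13 comparisons between 2 groups and 16 in none, RRAGD included. The share of all genes called in at least 1 of these comparisons was not counted. ATP6V1A, GLA, NBR1, TFE3 and TFEB were each called in 6. In 3 members all 27 extract libraries were apart from all 3 vehicle libraries: ATP6V1A was above (115 to 133 CPM in vehicle), and ATP6V0D1 and TFEB were below. The same held for 4.42% of all genes, 2.27% higher in the extracts and 2.15% lower. These 3 separations span all doses and formulas because the genes were picked that way. The extract and the library set cannot be told apart in them. On a principal component analysis of all 30 libraries, the second component (5.4% of variance) held the vehicle libraries at 16.5 to 18.4, together with Yijin-tang 100 replicate 2 at 21.5 and Okbyeongpung-san 500 replicate 3 at 17, and all others at −10.8 to 2.6. The changes of GLA, CTSL, TFE3, NBR1 and MAP1LC3B between 20 and 500 µg/mL of Soshiho-tang compare extract libraries only.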

How the data were processed

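The authors deposited 1 table of expected counts for 60675 Ensembl genes in 30 libraries. Reads were checked with FastQC 0.11.9 and trimmed with Trim Galore 0.6.5, and the tools RSEM 1.3.3 and STAR 2.7.3a and the build GRCh38 are named, per the submitters' processing notes. The annotation release and whether counting used strand are not given in the sources used here. RSEM divides reads shared by similar genes, and 9.52% to 11.52% of the values in a library were not whole. Per the labels' protocols RNA had a RIN above 7.

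Expected counts were rounded to whole numbers and tested with edgeR 4.0.16 (R 4.3.3): filterByExpr, TMM scaling and the robust quasi-likelihood F-test, with Benjamini-Hochberg adjustment over all genes and a threshold of 0.05. Vehicle, Soshiho-tang and Yijin-tang shared 1 fit (21 libraries, 15882 genes, common biological variation 4.71%), and vehicle and Okbyeongpung-san another (9 libraries, 15762 genes, 7.03%). Standard errors are the absolute log2 fold change over the root of F. Soyo-san was described on log2 CPM with a prior count of 2. Depth was 18477059 to 36162296 counts per library. On simulated counts with 50 genes changed 1.5-fold, 50 were called for Soshiho-tang 500 against vehicle and 47 for Okbyeongpung-san 500 against vehicle. With 50 changed 1.25-fold, 32 and 16 were called. The simulation gave all genes and libraries of a fit the same spread and changed no gene at low CPM. The real vehicle libraries differed more among themselves, so recovery in the data may be lower. Replicates differed by more than sampling noise in all 24 pairs (chi-square per degree of freedom 2.41 to 20.6), most in the vehicle pairs (11.2 to 20.6).

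Gene coordinates and exon overlap come from GENCODE release 29 on GRCh38, in which 57055 identifiers were found, and 56558 have a symbol. Of the members, 8 overlap exons of another gene on the same strand (CTSD, HEXA, MCOLN1, TPP1, ATP6V0C, FLCN, RRAGC, ATG9A) and 10 on the opposite strand only. Promoters are RefSeq's for GRCh38.p14. The members and all lists were chosen with earlier results of these data known. Values in every library are given for members past the test with separated groups and the largest log2 fold changes (up to 6 per comparison for Soshiho-tang and Yijin-tang, up to 3 for Okbyeongpung-san), for TFEB, TFE3, MAP1LC3B, LAMP1 and CTSD, and, chosen after their values were seen, for further members where a role needed them. Separation was thus part of the choice, and the share of all genes with separated groups was not counted for any pair of groups. From each other list the 3 genes with the smallest adjusted p for Soshiho-tang at 500 µg/mL are named. Alternatives were DESeq2 1.42.0, its size factors in edgeR, no filter, other sets of libraries in the fit, a replicate block, a batch term, another prior count, and leaving out each library.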

Additional observations from a re-analysis of the deposited data

Results flagged for a closer look

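The change from 20 to 500 µg/mL differed between Soshiho-tang and Yijin-tang in 4 members and in 9 genes named from the wider lists. The test was edgeR's, on the difference of the log2 changes (Soshiho-tang minus Yijin-tang), and 4.58% of all genes were called. The named genes were picked mainly for a small adjusted p with Soshiho-tang at 500 µg/mL. The other genes of those lists were not counted here. Among the members the difference was 0.68 for CTSL, 0.32 for NEU1, 0.24 for TFE3 and −0.25 for NBR1. Of the lysosomal genes it was 0.42 for IDS, 0.43 for NPC1 and −0.42 for GM2A, and it was −1.11 for the pump subunit ATP6V1B1. Of the TORC1 genes it was −0.87 for DEPTOR and −0.74 for SESN1. Of the autophagy genes it was 0.58 for ATG4A, 0.21 for VMP1 and 0.59 for SQSTM1, and the VMP1 call held in 17 of 27 other settings.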

How the results depend on the processing

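Of 77 member calls, 27 held under every alternative. The calls were recomputed 2068 times, of which 1854 kept and 214 lost the threshold and 0 changed sign. The wider lists' 250 calls, an alternative added after the data were seen, gave 6670 values: 5578 kept, 1092 lost and 0 changed sign. With only the compared groups in the fit, members called against vehicle were 10, 2 and 1 for Soshiho-tang 500, 100 and 20. These are 25%, 5% and 2.5%, where 27.8%, 3.67% and 2.38% of all genes were called. For Yijin-tang 500, 100 and 20 the counts were 2, 1 and 0 (all genes 6.82%, 3.79% and 3.26%). For Yijin-tang 500 against 20 the count was 4 (10%, all genes 5.75%). Between Soshiho-tang and Yijin-tang at 500 it was 10 (25%, all genes 19.6%). For Okbyeongpung-san 500 against 20 it was 5 (12.5%, all genes 6.29%). With no filter on low counts Okbyeongpung-san against vehicle gave 2 at 500 and 3 at 20 (4.88% and 7.32%, all genes 4.76% and 3.71%). DESeq2 gave 2 at 20 (5.88%, all genes 6.24%). With 27 libraries in 1 fit Okbyeongpung-san gave 13, 7 and 7 at 500, 100 and 20 against vehicle and 2 for 500 against 20. The replicate block gave 3 for Okbyeongpung-san 500 and 1 for 20 against vehicle (7.5% and 2.5%, all genes 6.29% and 2.97%). It gave 19 for Soshiho-tang 500 against vehicle and 10 against 20 (47.5% and 25%, all genes 40.1% and 27.7%). Same-numbered libraries showed little joint deviation over all genes (correlations −0.07 to 0.06). Such a correlation cannot decide whether the numbers pair samples. For Okbyeongpung-san the numbers mark batch E and batch D, and with a batch term Okbyeongpung-san gave 1 at 500 and 0 otherwise.

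Leaving out 1 library at a time, the members called ranged from 14 to 24 for Soshiho-tang 500, 4 to 12 for 100 and 3 to 9 for 20 against vehicle, and 6 to 11 for 500 against 20. For Yijin-tang they ranged from 3 to 13 at 500, 4 to 12 at 100 and 4 to 10 at 20 against vehicle, and 1 to 3 for 500 against 20. They ranged from 5 to 11 between the formulas at 500 and 2 to 5 for the difference of their dose changes. For Okbyeongpung-san they ranged from 0 to 5 at 500, 0 to 1 at 100 and 0 to 4 at 20 against vehicle, and were 0 for 500 against 20. The share of all genes called in each of these fits is not given here. The ranges therefore do not tell a change in the members from a shift of the whole fit. The cause of the differences between these fits was not tested beyond the fewer libraries in each fit.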
